A study of Mus musculus with 10 samples.

Results

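The ileum, the last stretch of the small intestine, was compared between a mouse library made after vertical sleeve gastrectomy (VSG) and one made after sham surgery. VSG removed the lateral 80% of the stomach and left about 20% as a tube. In sham surgery the abdomen was opened and the stomach was pressed without being cut. Both groups were male C57BL/6J mice, aged 17 weeks per the labels and kept for 13 weeks on high-fat diet. They were fasted overnight before the operation and received liquid diet for 3 days after it before returning to the high-fat diet. No genetic change was made in either group. The labels give 1 library for each of 5 tissues and each operation, so there are 10 libraries in all. They give neither the number of mice behind a library nor the time between the operation and tissue collection. With 1 library a group, no test, SE or p-value can be given, and every difference below holds for these 2 libraries.

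Genes were taken from the deposited RPKM values, a read count divided by gene length and by library size. A gene was kept where the mean of VSG and sham ileum was at least 1 RPKM. This rule kept 12202 of the 23079 genes in the table. Just inside the threshold was Sh3pxd2b, with 1.08 RPKM in VSG and 0.921 RPKM in sham ileum, and just outside it was Uba1y, with 0.779 RPKM in VSG and 1.22 RPKM in sham ileum. Differences are log2 of (VSG RPKM + 1) over (sham RPKM + 1), so a positive value means higher in VSG ileum, and the added 1 understates the change of low genes. A gene counted as called where that difference was at least 1 or at most -1, which is 2-fold. Ranges after a fold are exact 95% intervals of the ratio of RPKM. They cover counting error between 2 libraries and no variation between mice.

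The values implied depths of 38994091 reads for VSG and 49995234 reads for sham ileum. Across the 10 libraries the implied depth ran from 37449452 to 78382748 reads. Both ileum libraries held the genes that mark this region. Fabp6, the ileal bile acid carrier, had 4449 RPKM in VSG and 4365 RPKM in sham ileum, and was at most 43.7 RPKM in any other library. Slc10a2, the uptake transporter for bile acids, had 110 RPKM in VSG and 106 RPKM in sham ileum. Vil1, a villin gene of enterocytes, had 741 RPKM in VSG duodenum but 0.526 RPKM where the label says sham duodenum. Trf, a plasma protein gene of liver, reached 5043 RPKM where the label says VSG stomach, against 13 RPKM in sham stomach. The library labelled sham duodenum goes against its label. The library labelled VSG stomach also held Ghrl, the ghrelin gene, at 150 RPKM. Outside the stomach libraries Ghrl was at most 29.4 RPKM, in VSG duodenum. The VSG stomach library thus held a stomach gene beside a gene of liver. No difference between VSG and sham ileum below uses the libraries labelled sham duodenum or VSG stomach. They enter only where levels are given across all libraries. In bulk tissue, fewer cells of a type and less RNA per cell cannot be told apart.

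The ileum recovers bile acids from the gut lumen through apical uptake, a cytosolic carrier and basolateral export. Bile acids that bind the nuclear receptor FXR, encoded by Nr1h4, induce Fgf15, a hormone that travels to the liver and restrains bile acid synthesis. The ileal crypts are also rich in Paneth cells, which secrete defensins and other antimicrobial proteins. In mice, tuft cells and the cytokines of type 2 immunity change what crypt and goblet cells make.

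The called genes S100g, Duoxa2, Sprr2b and Cyp1a1 are shown by their promoters because they stand for different groups below: a calcium carrier, a subunit of a hydrogen peroxide source, a small proline-rich barrier protein and a detoxifying enzyme. Windows of 250 bases before to 50 after the start site come from RefSeq (GRCm38.p6) and are written in the direction of transcription. Capitals mark TATAAA, the TATA box core, GCGTG, the core that the aryl hydrocarbon receptor reads, and AGGTCA, a half-site of nuclear receptors, each on either strand. None of the marked matches overlap. S100g lies at chrX:162964550-162964849 on the minus strand, Duoxa2 at chr2:122298650-122298949 on the plus strand, Sprr2b at chr3:92316455-92316754 on the plus strand and Cyp1a1 at chr9:57697363-57697662 on the plus strand.
S100g: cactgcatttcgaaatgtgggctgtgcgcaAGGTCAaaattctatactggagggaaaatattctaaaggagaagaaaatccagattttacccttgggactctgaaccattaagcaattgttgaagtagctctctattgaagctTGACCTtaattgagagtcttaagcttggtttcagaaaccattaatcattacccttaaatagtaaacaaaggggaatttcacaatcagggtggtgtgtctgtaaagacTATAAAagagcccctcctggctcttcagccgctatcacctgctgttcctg
Duoxa2: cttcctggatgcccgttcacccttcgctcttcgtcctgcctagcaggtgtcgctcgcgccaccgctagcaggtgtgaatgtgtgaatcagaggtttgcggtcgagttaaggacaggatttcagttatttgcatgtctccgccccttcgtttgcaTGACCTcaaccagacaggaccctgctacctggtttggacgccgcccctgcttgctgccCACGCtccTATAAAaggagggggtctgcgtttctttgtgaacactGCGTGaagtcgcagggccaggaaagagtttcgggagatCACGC
Sprr2b: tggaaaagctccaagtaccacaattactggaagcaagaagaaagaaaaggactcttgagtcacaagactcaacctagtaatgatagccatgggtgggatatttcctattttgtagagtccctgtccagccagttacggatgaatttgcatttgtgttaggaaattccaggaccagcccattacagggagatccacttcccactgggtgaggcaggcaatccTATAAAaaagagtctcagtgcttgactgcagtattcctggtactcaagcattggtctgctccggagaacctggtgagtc
Cyp1a1: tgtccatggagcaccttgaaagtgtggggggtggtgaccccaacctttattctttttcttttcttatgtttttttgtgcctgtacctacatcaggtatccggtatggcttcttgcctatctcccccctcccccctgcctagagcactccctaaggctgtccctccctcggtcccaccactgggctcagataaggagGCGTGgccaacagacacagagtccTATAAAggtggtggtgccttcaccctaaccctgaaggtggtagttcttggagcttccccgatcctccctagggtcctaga

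The TATAAA letters began 30 bases before the start site in both Cyp1a1 and Duoxa2 and 29 bases before it in Sprr2b, whereas in S100g they began at the start site itself. Cyp1a1 held 1 GCGTG, 54 bases before the start. Duoxa2 held GCGTG as well, on the minus strand 38 bases before the start and at bases 8 (plus strand) and 46 (minus strand) from it. It also held AGGTCA on the minus strand 96 bases before the start. S100g held AGGTCA on the plus strand 220 bases before the start and on the minus strand 107 bases before it. Of 33 called genes, 16 had a window in the RefSeq table. TATAAA was found in 5 of these 16 genes (31.2%), against 13.6% of all 32851 windows. GCGTG was found in 4 (25%), against 32.4% of windows, and AGGTCA in 3 (18.8%), against 16.3%. The shares of called genes count genes, 16 with 17 windows, and the others count windows, 32851 of 27025 genes, so they are unlike measures. S100g, Duoxa2, Sprr2b and Cyp1a1, the promoters shown, are all among the 5 genes with TATAAA. A match is a description of the letters and not a binding site.

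Few genes differed at 2-fold between the ileum libraries. At least 2-fold higher in VSG ileum were 18 genes (0.148% of those kept) and at least 2-fold lower were 15 (0.123%). The log2 difference had a median of 0.01 and an SD of 0.20 across genes, with its 5th and 95th percentiles at -0.31 and 0.28. Differences above 0 made up 51.8% of kept genes and those below 0 made up 48.2%. At a smaller threshold of 1.3-fold, chosen after the values were seen, 2.26% of genes were higher and 3.10% lower. Rescaling both libraries to 1 total of RPKM lowered the median of all genes by 0.08, left 15 higher and gave 20 lower at 2-fold, so that 42.9% of called genes were higher, against 54.5% as deposited, and 29.4% of all kept genes then lay above 0. Counts of members above 0 after rescaling are read against that share. Of the 18 higher genes, 15 encode proteins. Of the 15 lower genes, 6 encode proteins, and 8 are gene models under 200 bases with 1 to 12 reads in VSG and 12 to 40 reads in sham ileum.

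**Figure D1:**
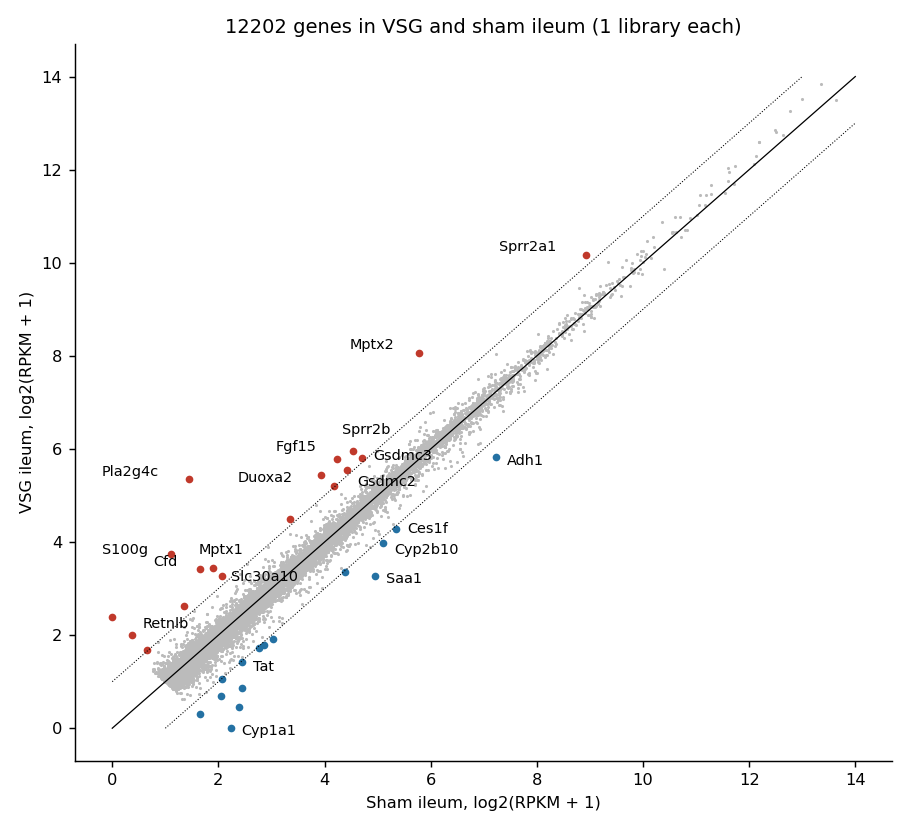
Each point is 1 of 12202 kept genes, with log2(RPKM + 1) in VSG ileum on the y axis and in sham ileum on the x axis (1 library each). The solid line marks equal values and the dotted lines 2-fold, red points are the 18 genes above and blue points the 15 genes below, and Pla2g4c lies farthest above the line and Cyp1a1 farthest below it.

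Of 16 kept bile acid genes of the ileum, Fgf15 was the 1 called, higher in VSG ileum (0.148% of all kept genes were), and 3 were at least 1.3-fold lower (3.10% of all genes were). Fgf15 (chr7:144896532-144900953) had 54.4 RPKM and 3834 reads in VSG ileum, against 17.9 RPKM and 1617 reads in sham ileum. The ratio was 3.04-fold (2.87 to 3.22). Outside the ileum Fgf15 was at most 0.241 RPKM in any library, and at most 0.148 RPKM without the libraries labelled VSG stomach and sham duodenum. The receptor gene Nr1h4 was at 28.7 RPKM in VSG and 26.9 RPKM in sham ileum. The exporter genes Slc51a (481 in VSG and 420 RPKM in sham ileum) and Slc51b (166 in VSG and 156 RPKM in sham ileum) and the uptake and carrier genes above lay within 0.20 of 0 on the log2 scale. Nr0b2, a repressor that FXR induces, stayed below the filter with 0.94 RPKM in VSG and 0.465 RPKM in sham ileum. The median of the list was -0.05, with 7 of 16 members above 0, against 51.8% of all kept genes, and after rescaling it was -0.14 with 2 of 16 above 0. The 3 lower members were Nr1i3, the xenobiotic receptor CAR (4.15 RPKM in VSG and 8.15 RPKM in sham ileum), Osgin1, an oxidative stress response gene (14.6 in VSG and 22.8 RPKM in sham ileum), and Cyp27a1, a sterol hydroxylase of bile acid synthesis (18.5 in VSG and 24.5 RPKM in sham ileum).

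Gut hormone genes showed small differences and no call. Gcg, which encodes the precursor of GLP-1, had 52.3 RPKM in VSG and 34.5 RPKM in sham ileum, a ratio of 1.51 (1.42 to 1.61). Nts, neurotensin, had 115 RPKM in VSG and 86.9 RPKM in sham ileum. Pyy, peptide YY, had 49.4 in VSG and 38.3 RPKM in sham ileum, and Cck, cholecystokinin, had 9.39 in VSG and 6.79 RPKM in sham ileum. Gip, the incretin of the upper intestine, went the other way with 24.3 RPKM in VSG and 34.4 RPKM in sham ileum. Somatostatin (Sst) was at 55.3 in VSG and 54.8 RPKM in sham ileum. Of 22 kept members, 15 were above 0, 6 were at least 1.3-fold higher (2.26% of all genes were) and 1 was at least 1.3-fold lower (3.10%), and the list median was 0.09. After rescaling to 1 total of RPKM, 12 of 22 were above 0.

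The highest difference of all kept genes was in Pla2g4c, a cytosolic phospholipase A2 gene (chr7:13311507-13360674). It had 39.6 RPKM and 5382 reads in VSG ileum, against 1.71 RPKM and 298 reads in sham ileum, a ratio of 23.2 (20.6 to 26.1). Jejunum had 0.757 RPKM after VSG and 0.143 RPKM after sham surgery, and colon had 0.766 RPKM after VSG and 0.434 RPKM after sham surgery, so the VSG ileum library was the highest of the 10 for this gene. None of the other 13 kept phospholipase A2 genes was called. Nearest were Pla2g2f, with 8.03 RPKM in VSG and 4.56 RPKM in sham ileum, and Pla2g2a, a Paneth cell phospholipase, with 35.9 in VSG and 24.5 RPKM in sham ileum. The close relative Pla2g4a had 7.1 in VSG and 6.14 RPKM in sham ileum. The list as a whole had a median of 0.01.

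Pla2g4c belongs to a list of tuft cell and type 2 response genes, of which 5 of 27 kept members were at least 2-fold higher (0.148% of all kept genes were) and none lower. That list was chosen with earlier results of these data known, so its count is a description and tests nothing. The other called members were small proline-rich genes and gasdermins. Sprr2a1, a barrier protein gene, had 1150 RPKM in VSG and 485 RPKM in sham ileum, and Sprr2b had 61.4 in VSG and 22.3 RPKM in sham ileum. Gsdmc2 had 45.7 RPKM in VSG and 20.3 RPKM in sham ileum, and its neighbour Gsdmc3 had 54.6 in VSG and 25.1 RPKM in sham ileum. Gsdmc and Gsdmc4, of the same cluster of pore-forming proteins on chromosome 15, lay just under the threshold with log2 differences of 0.98 and 0.96. Near-identical copies can share reads in the Sprr2a and Gsdmc families, so the split between members is uncertain.

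Markers of the tuft cell itself differed less than those epithelial genes. Trpm5, its taste-like channel, had 3.01 RPKM in VSG and 2.14 RPKM in sham ileum. Dclk1 had 1.53 in VSG and 1.06 RPKM in sham ileum, Avil had 3.53 in VSG and 2.74 RPKM in sham ileum, and the lineage factor Pou2f3 had 1.37 in VSG and 1.2 RPKM in sham ileum. Other members were level or lower: Hpgds, a prostaglandin D synthase, had 2.11 RPKM in VSG and 2.12 RPKM in sham ileum, Ptgs1 had 11 in VSG and 11.9 RPKM in sham ileum, and the IL-25 receptor gene Il17rb had 1.54 in VSG and 1.99 RPKM in sham ileum. The cytokine genes Il4, Il5, Il13 and Il25 were all below 0.25 RPKM in both libraries, with Il4 at 0 in both. The list had a median of 0.29, with 20 of 27 members above 0, and kept 20 above 0 after rescaling. Retnlb, a goblet cell product that type 2 responses induce in mice, had 3.02 RPKM and 82 reads in VSG ileum, against 0.287 RPKM and 10 reads in sham ileum, a ratio of 10.5 (5.44 to 22.7). No other of the 23 kept goblet genes was called (median 0.12, 18 above 0, 13 after rescaling).

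Paneth cell and antimicrobial genes were higher as a group in VSG ileum. Of 33 kept members 31 were above 0, against 51.8% of all kept genes, and 29 stayed above 0 after rescaling. The median was 0.39, 19 members were at least 1.3-fold higher (2.26% of all genes were) and 3 reached 2-fold. Many members are near-identical defensin genes that can share reads, so these counts are not of independent genes. Mptx2, a secreted pentraxin of Paneth cells, had 268 RPKM in VSG and 53.7 RPKM in sham ileum, a ratio of 4.99 (4.74 to 5.25). Its paralog Mptx1 had 9.8 in VSG and 2.74 RPKM in sham ileum, and reads of the pair may be shared in part. Defa25 had 21.4 RPKM in VSG and 9.18 RPKM in sham ileum.

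The abundant defensins differed by less. Defa20 had 11655 RPKM in VSG and 8153 RPKM in sham ileum, and Defa33 had 14754 in VSG and 10452 RPKM in sham ileum. Near-identical defensin genes can share reads, so single members are uncertain. Lyz1, lysozyme, had 7189 RPKM in VSG and 5845 RPKM in sham ileum. Ang4, an antimicrobial ribonuclease, had 706 in VSG and 441 RPKM in sham ileum, and Mmp7, the protease that activates defensins, had 179 in VSG and 118 RPKM in sham ileum. Itln1, an intelectin, had 1887 in VSG and 1317 RPKM in sham ileum. Exceptions were the C-type lectins Reg3b (3284 RPKM in VSG and 3351 RPKM in sham ileum) and Reg3a (104 in VSG and 131 RPKM in sham ileum). The summed level of all 33 genes was 91449 RPKM in VSG and 69608 RPKM in sham ileum, and the 10 highest genes of a library held 17.6% of all RPKM in VSG and 15.2% in sham ileum.

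**Figure D2:**
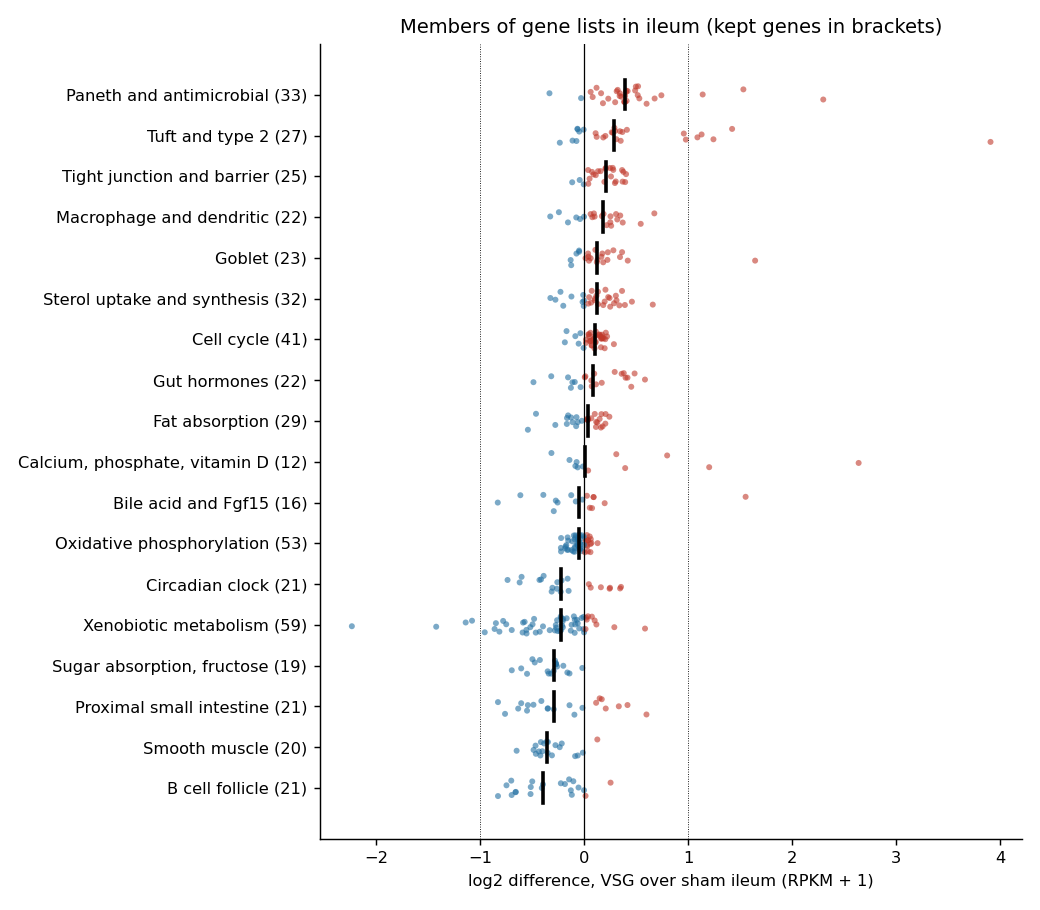
Each point is a kept gene of a list (number kept in brackets), placed by its log2 difference between VSG and sham ileum on the x axis, red above 0 and blue below; black bars are medians and dotted lines mark 2-fold. Of the lists shown, the Paneth and tuft lists lie highest (medians 0.39 and 0.29), and the smooth muscle and B cell follicle lists lie lowest (medians -0.36 and -0.40).

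Among genes of epithelial defence and acute phase, the dual oxidase pair was higher in VSG ileum. Duoxa2, the maturation factor that Duox2 needs, had 42.4 RPKM in VSG and 14.2 RPKM in sham ileum, a ratio of 2.98 (2.78 to 3.2). Duox2, which makes hydrogen peroxide at the cell surface, had 35.2 RPKM in VSG and 17.3 RPKM in sham ileum, a ratio of 2.04 (1.97 to 2.11) and a log2 difference of 0.99. The genes lie head to head on chromosome 2, Duox2 at 122279246 to 122298740 and Duoxa2 at 122298900 to 122302885. C3, the central complement protein, had 26.7 RPKM in VSG and 13.3 RPKM in sham ileum (log2 difference 0.96). Lcn2, which binds bacterial siderophores, had 4.18 in VSG and 1.88 RPKM in sham ileum (0.85). AA467197, a mitochondrial protein gene, was called with 36 RPKM in VSG and 17.2 RPKM in sham ileum.

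Saa1, an acute phase apolipoprotein, was lower in VSG ileum. It had 8.66 RPKM and 237 reads in VSG ileum, against 29.8 RPKM and 1046 reads in sham ileum, 3.44-fold lower (2.99 to 3.98). Its neighbour Saa2 had 1.39 RPKM in VSG and 2.85 RPKM in sham ileum, whereas Saa3 had 2.01 in VSG and 1.4 RPKM in sham ileum. Saa1 and Saa2 are close copies that may share reads. Of the 28 kept cytokine and acute phase genes, 20 were above 0 with a median of 0.19, 17 after rescaling. The neutrophil genes S100a8 and S100a9 stayed below the filter, with 1.18 and 1.65 RPKM in VSG ileum and 0.204 and 0.0613 RPKM in sham ileum.

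Calcium handling was represented by 1 strong difference. S100g, calbindin D9k, carries calcium across the enterocyte. It had 12.4 RPKM and 353 reads in VSG ileum, against 1.15 RPKM and 42 reads in sham ileum, a ratio of 10.8 (7.81 to 15.2). The calcium channel gene Trpv6 was close to 0 in both libraries (0.00876 RPKM in VSG and 0.0205 RPKM in sham ileum). The vitamin D receptor gene Vdr had 88.7 in VSG and 92.7 RPKM in sham ileum, and the pump gene Atp2b1 had 47.5 in VSG and 38.1 RPKM in sham ileum. Cyp24a1, the vitamin D hydroxylase gene, was below 0.1 RPKM in both.

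Slc30a10, a manganese exporter, had 8.7 RPKM and 2019 reads in VSG ileum, against 3.22 RPKM and 957 reads in sham ileum, a ratio of 2.7 (2.5 to 2.92). The lncRNA gene Gm2061, whose coordinates overlap those of Slc30a10 on chromosome 1, had 5.18 in VSG and 1.54 RPKM in sham ileum. The 2 genes share only their ends, from base 185454848 to 185455568, and reads in that stretch cannot be told apart. Slc34a2, the phosphate transporter, had 109 RPKM in VSG and 62.3 RPKM in sham ileum (log2 difference 0.80). The list held 12 kept genes, of which 2 were at least 2-fold higher (0.148% of all kept genes were), 6 were above 0 and the median was 0.01, below 0 at -0.07 after rescaling.

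Genes of xenobiotic metabolism were lower in VSG ileum. Of 59 kept members 9 were above 0, and 4 were at least 2-fold lower, against 0.123% of all genes. The median was -0.23, and -0.32 after rescaling, and 22 members were at least 1.3-fold lower (3.10% of all genes were). Cyp1a1, a cytochrome P450 that the aryl hydrocarbon receptor induces (chr9:57687928-57703824), had no read in VSG ileum, against 515 reads and 3.7 RPKM in sham ileum. With 3 reads as the floor in the VSG library it was at least 134-fold lower, a bound that is too high if mates were counted singly. The receptor gene Ahr itself had 4.35 RPKM in VSG and 4.01 RPKM in sham ileum, and Tiparp, another of its targets, had 7.57 in VSG and 8 RPKM in sham ileum. Ahrr, a repressor that the same receptor induces, stayed below the filter with 0.199 RPKM in VSG and 0.551 RPKM in sham ileum.

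Adh1, an alcohol and retinol dehydrogenase, had 55.3 RPKM and 2879 reads in VSG ileum, against 150 RPKM and 9997 reads in sham ileum, 2.71-fold lower (2.6 to 2.82). Cyp2b10, the classic target of the receptor CAR, had 14.7 RPKM in VSG and 33.4 RPKM in sham ileum, 2.28-fold lower (2.13 to 2.45). Ces1f, a carboxylesterase, had 18.3 in VSG and 39.8 RPKM in sham ileum, 2.17-fold lower (2.04 to 2.31). The listed glutathione transferases were lower in VSG ileum or nearly equal. Gstm3, at 13.9 RPKM in VSG and 27.9 RPKM in sham ileum, and Gsta1, at 68.5 in VSG and 121 RPKM in sham ileum, lay toward the threshold, whereas Gstp1 had 359 in VSG and 352 RPKM in sham ileum and Gsta4 had 24.4 in VSG and 25.2 RPKM in sham ileum. Cyp3a11, a drug-oxidising P450, had 16.9 in VSG and 31.5 RPKM in sham ileum. Members of the Ces1, Gsta and Cyp3a families are close copies, so their split is uncertain.

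Not every detoxification gene was lower. Of the Ces2 carboxylesterases, Ces2b and Ces2c stood at the other end of the list. Ces2b had 24.4 RPKM in VSG and 15.9 RPKM in sham ileum and Ces2c had 450 in VSG and 368 RPKM in sham ileum. Their relatives Ces2a (135 in VSG and 126 RPKM in sham ileum) and Ces2e (398 in VSG and 400 RPKM in sham ileum) differed little. Por, which passes electrons to the P450 enzymes (107 RPKM in VSG and 109 RPKM in sham ileum), and Cyp3a13 (148 in VSG and 154 RPKM in sham ileum) were nearly equal. Other genes at high levels were not, among them Aldh1a1, a retinal dehydrogenase (151 RPKM in VSG and 216 RPKM in sham ileum), and Cyp2d26 (161 in VSG and 212 RPKM in sham ileum).

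All 19 kept genes of sugar absorption and fructose metabolism were below 0 in VSG ileum, against 48.2% of all genes, with a median of -0.29, and none was called. The largest difference was in Slc5a4b, a sodium-coupled transporter of the glucose carrier family, with 46.9 RPKM in VSG and 76.6 RPKM in sham ileum. Slc2a2, the basolateral glucose exit, had 31.1 in VSG and 47.9 RPKM in sham ileum. The disaccharidases Lct (111 RPKM in VSG and 163 RPKM in sham ileum), Treh (85.3 in VSG and 121 RPKM in sham ileum) and Sis (628 in VSG and 769 RPKM in sham ileum) were lower as well. The main glucose transporter Slc5a1 had 448 in VSG and 540 RPKM in sham ileum, and Slc2a5, the fructose transporter, had 36.8 in VSG and 44.6 RPKM in sham ileum. Of these 19 genes 6 were at least 1.3-fold lower (3.10% of all genes were).

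Genes typical of the upper small intestine lay below 0 in 14 of 21 kept cases (median -0.29), against 48.2% of all kept genes. After rescaling 7 of 21 were above 0, near the 29.4% of all kept genes, at a median of -0.38. Fabp1, the liver-type fatty acid carrier, had 929 RPKM in VSG and 1352 RPKM in sham ileum. Slc5a12, a lactate transporter, had 16 in VSG and 29.1 RPKM in sham ileum, whereas Apoa4 had 4996 in VSG and 4504 RPKM in sham ileum. Fat absorption genes were split, 17 of 29 above 0 with a median of 0.03, and -0.06 after rescaling. Sterol uptake and synthesis genes lay above 0 in 23 of 32 cases, and in 19 after rescaling, at a median of 0.13. In that list Fdft1, squalene synthase, had 21.7 RPKM in VSG and 15.5 RPKM in sham ileum.

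Of the circadian clock genes, the period genes were lowest. Per1 had 4.28 RPKM in VSG and 7.79 RPKM in sham ileum, Per2 had 9.73 in VSG and 15.5 RPKM in sham ileum, and Per3 had 4.27 in VSG and 7 RPKM in sham ileum. On the other arm of the clock, Arntl had 4.11 RPKM in VSG and 3.31 RPKM in sham ileum and Npas2 had 6.58 in VSG and 4.96 RPKM in sham ileum. The list of 21 kept genes had a median of -0.22, with 7 above 0 (51.8% of all kept genes were). Of the 21, 6 were at least 1.3-fold lower (3.10% of all genes were). After rescaling 5 of 21 were above 0, near the 29.4% of all kept genes, at a median of -0.32. The hour of collection is not given in the labels, and its part in these values was not tested.

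Barrier genes were slightly higher in VSG ileum, 22 of 25 above 0 (17 after rescaling) with a median of 0.21 and none called. Muc13, a transmembrane mucin, had 1503 RPKM in VSG and 1167 RPKM in sham ileum, and Ocln, occludin, had 46.2 in VSG and 34.7 RPKM in sham ileum. Cell cycle genes lay above 0 in 35 of 41 cases at a median of 0.10, and in 23 of 41 at 0.02 after rescaling. Oxidative phosphorylation genes lay above 0 in 14 of 53 cases, at a median of -0.05, and in 1 of 53 at -0.15 after rescaling.

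Markers of other cell types and tissues in the wall were compared beside these groups, and their part in the results was not tested. B cell follicle genes of Peyer's patches were lower in VSG ileum, with 2 of 21 kept members above 0, a median of -0.40 and none called. The summed level of 24 such genes was 58.9 RPKM in VSG and 83.6 RPKM in sham ileum. Cd79a, a signalling chain of the B cell receptor, had 10.6 RPKM in VSG and 15.6 RPKM in sham ileum. Plasma cell genes had a median of -0.01, with Jchain, the joining chain of IgA, at 257 RPKM in VSG and 287 RPKM in sham ileum.

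Smooth muscle genes were lower in VSG ileum too, with 1 of 20 above 0, a median of -0.36 and 9 at least 1.3-fold lower (3.10% of all genes were). Their summed level was 1290 RPKM in VSG and 1657 RPKM in sham ileum. Myh11, smooth muscle myosin, had 60.1 RPKM in VSG and 94.7 RPKM in sham ileum, and Acta2 had 196 in VSG and 252 RPKM in sham ileum. Macrophage and dendritic genes lay above 0 in 16 of 22 cases (median 0.18). Among them Lyz2, a lysozyme, had 958 RPKM in VSG and 774 RPKM in sham ileum. Lyz2 and the Paneth cell gene Lyz1 are close copies that may share reads. The next highest gene of that list, C1qa, had 39.7 RPKM in VSG and 34.7 RPKM in sham ileum, and 6 of the 22 kept members lay below 0. Red blood cell genes summed to 190 RPKM in VSG and 240 RPKM in sham ileum. Pancreas acinar genes had a median of -0.16, with 3 of 12 kept members above 0, and 19 of the 31 in the table stayed below the filter. Their sum was 3445 RPKM in VSG and 3579 RPKM in sham ileum, of which Zg16, also a goblet cell gene, held 2894 RPKM in VSG and 2992 RPKM in sham ileum. The pancreatic enzyme genes Prss1, Ctrc, Prss3, Cpa1 and Cel were each at or below 0.33 RPKM in both ileum libraries, the first 3 of them at 0 in both. The 18 liver genes summed to 139 RPKM in VSG and 142 RPKM in sham ileum, with Alb, albumin, at 1.38 RPKM in VSG and 0.49 RPKM in sham ileum, whereas Tat, an amino acid enzyme of liver, had 1.67 in VSG and 4.46 RPKM in sham ileum and was called lower.

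Adipocyte genes were split, 10 of 18 above 0, and their median was 0.04, or -0.05 after rescaling. Cfd, the complement protease adipsin, was called with 9.67 RPKM and 406 reads in VSG ileum, against 2.15 RPKM and 116 reads in sham ileum, a ratio of 4.49 (3.64 to 5.56). Adipoq, adiponectin, had 4.5 RPKM in VSG and 3.6 RPKM in sham ileum and Fabp4 had 64.5 in VSG and 54.5 RPKM in sham ileum. Lep, leptin, had 0.724 RPKM in VSG and 2.41 RPKM in sham ileum (log2 difference -0.98). Summed, the 23 adipocyte genes had 447 RPKM in VSG and 413 RPKM in sham ileum.

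The short gene models among the called genes rest on few reads. Of 107 kept models under 200 bases, 10 were called (9.35%), against 23 of the 12088 longer ones whose length could be recovered. Snord73b, a small nucleolar RNA, was the lowest of them in VSG ileum, with 1 read in VSG and 15 reads in sham ileum. Entrez gene 100628587, which has no symbol in the annotation used here, had 20 reads in VSG and none in sham ileum. Mir215, a microRNA gene of intestinal epithelium, had 10 reads in VSG and 32 reads in sham ileum, 2.5-fold lower (1.2 to 5.69), and the Mir194-1 hairpin beside it on chromosome 1 had 5 reads in VSG and 13 reads in sham ileum. Mir192, on chromosome 19, had 34 reads in VSG and 41 reads in sham ileum, and Mir194-2 there had 6 in VSG and 16 reads in sham ileum. These are reads of the hairpin loci in an RNA-seq library and not mature microRNA levels. Mature miR-215-5p and miR-192-5p share their seed (bases 2 to 8, in capitals), as RefSeq gives them.
mmu-miR-215-5p: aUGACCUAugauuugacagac
mmu-miR-192-5p: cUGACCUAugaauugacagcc

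Set beside jejunum and colon, ileum had fewer genes at 2-fold in all, 33 against 124 and 62. Of 11681 genes kept in jejunum, 0.762% were at least 2-fold higher after VSG and 0.300% lower. In colon, 0.432% of 12970 genes were higher and 0.0463% lower. Genes of the pancreas acinar list account for 22 of the 89 higher genes in jejunum and 21 of the 56 in colon, and for none in ileum. Of the 18 genes higher in ileum, 6 were also at least 2-fold higher in jejunum (33.3% of the ileum genes and 6.74% of the 89 jejunum genes), among them Mptx2, Cfd, Duoxa2, Gsdmc2 and Gsdmc3. In colon 4 of the 18 were (22.2%, and 7.14% of the 56 colon genes), which are Cfd, S100g, Slc30a10 and Gm2061. Of the 15 lower genes, 3 were also lower in jejunum (Cyp1a1, Ces1f and Snora31) and none in colon. Cfd was called higher in each of the 3 tissues, with colon at 25.3 RPKM after VSG and 4.11 RPKM after sham surgery.

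**Figure D3:**
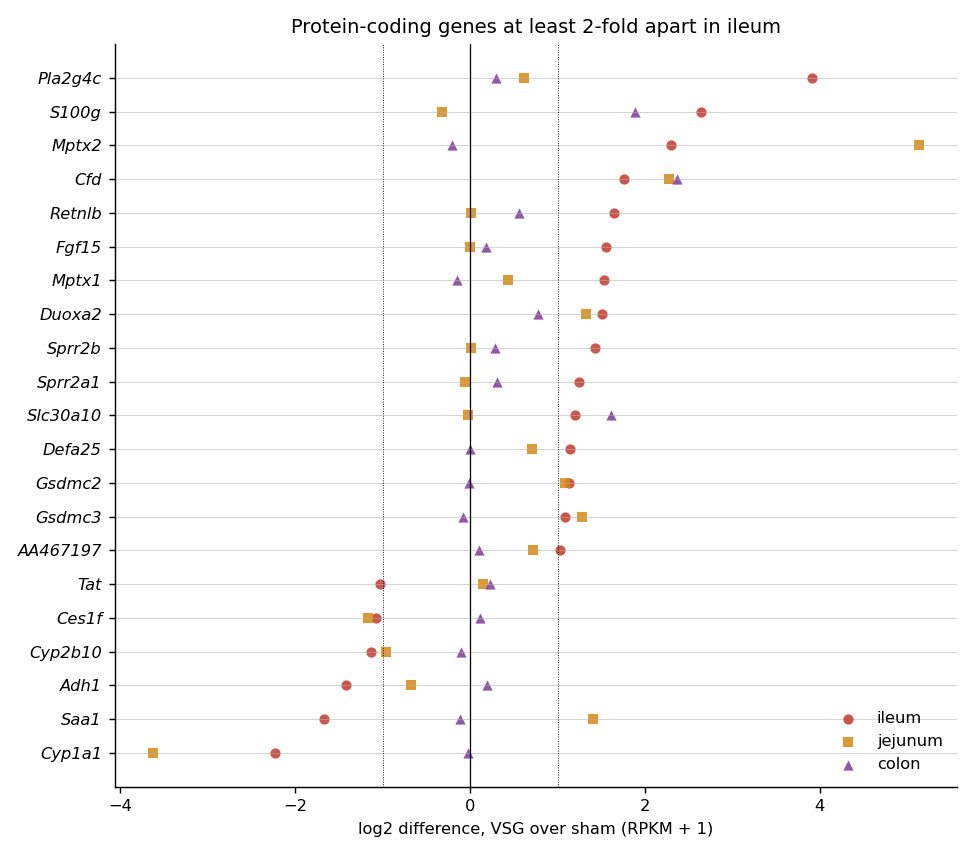
The 21 protein-coding genes called in ileum are placed by their log2 difference between VSG and sham on the x axis in ileum (circles), jejunum (squares) and colon (triangles), 1 pair of libraries each; dotted lines mark 2-fold. Pla2g4c, Retnlb and Fgf15 lie inside the 2-fold lines in jejunum and colon, Cyp1a1 and Ces1f are lower in jejunum as well, and Saa1 lies on opposite sides in ileum and jejunum.

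Several genes called in ileum differed in other ways elsewhere. Sprr2b had 32 RPKM after VSG and 31.8 RPKM after sham surgery in jejunum, and S100g had 14.8 RPKM after VSG and 18.7 RPKM after sham surgery there, whereas colon had 58.7 RPKM of S100g after VSG and 15.2 RPKM after sham surgery. Mptx2 had 131 RPKM after VSG and 2.77 RPKM after sham surgery in jejunum, a larger difference than in ileum, and colon had 33.6 RPKM after VSG and 39 RPKM after sham surgery. Whether the tissues differ in their response was not tested, because each has 1 library a group.

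Group medians also differed along the gut. Xenobiotic genes had a median of -0.58 in jejunum and 0.11 in colon, against -0.23 in ileum. Of 58 xenobiotic genes kept in both ileum and jejunum, 47 were below 0 in both and 1 was above 0 in both. Across these 58 genes the differences had a Pearson r of 0.719, or 0.543 across the 57 without Cyp1a1, against 0.289 across all 11473 genes kept in both tissues. This is a description across genes, which are not independent. Cyp1a1 was the most distant point, with 0 RPKM after VSG and 11.4 RPKM after sham surgery in jejunum. Paneth genes had a median of 1.11 in jejunum, where 22 of 33 were at least 2-fold higher. B cell follicle genes had medians of 0.25 in jejunum and -0.22 in colon, against -0.40 in ileum, and smooth muscle genes had 0.03 in jejunum and -0.15 in colon, against -0.36 in ileum. Pancreas genes had a median of 2.71 in jejunum and 3.64 in colon, against -0.16 in ileum.

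**Figure D4:**
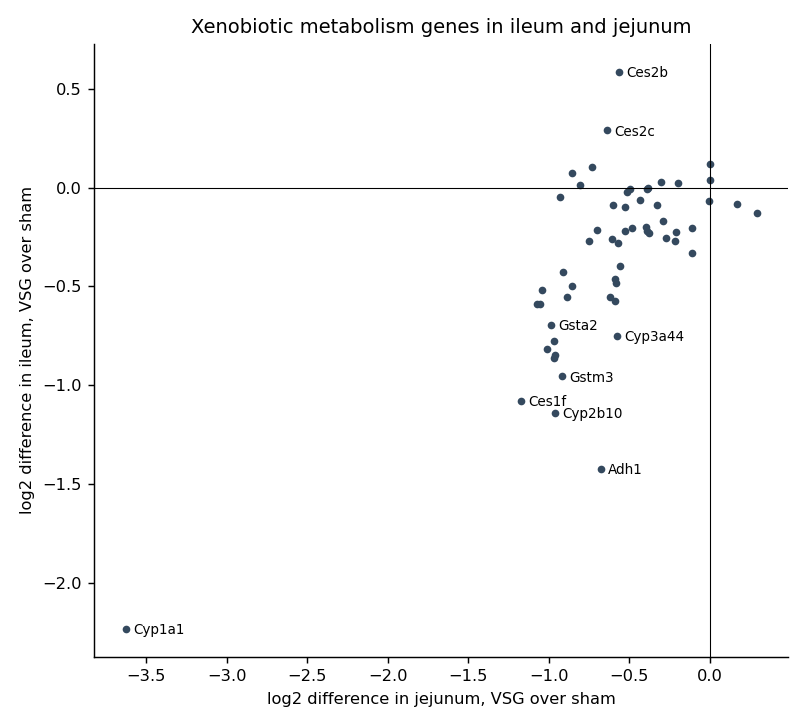
The 58 xenobiotic metabolism genes kept in both tissues are placed by their log2 difference between VSG and sham in ileum (y axis) and in jejunum (x axis), 1 pair of libraries each. Most points (47) lie below 0 on both axes, with Cyp1a1 at the lower left. Ces2b is among the points above 0 in ileum and below 0 in jejunum.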

How the data were processed

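RNA from 5 gut tissues was sequenced after VSG or sham surgery, 1 library each. GSNAP, Cufflinks and mm10 are named in the submitters' processing notes, without versions. The authors deposited 1 table of RPKM values by Entrez gene. In rows 27 to 18213 the intestinal values sat 1 row below their genes and were moved back. Log2 levels of stomach and ileum then had r = 0.776 in that block (0.305 as deposited), and values became whole reads for 1037 of 1038 sampled genes (26 as deposited). RefSeq (GRCm38.p6) named 23008 of 23079 genes. Whole reads were recovered for 12195 of the 12202 kept genes. Reads count as whole within 0.001, or proportionally more at very high counts. Low counts were even in 62.2% (VSG) and 60.6% (sham) of cases, so mates may have been counted singly. The exact conditional binomial intervals (95%) are then too narrow and the floor of 3 reads is too low. Calculations used Python 3.11.15, pandas 2.3.3 and scipy 1.17.1 and were tested on simulated reads. Named genes are the 15 highest and 15 lowest, the largest and most abundant members of each list, any member of the bile acid, hormone, Paneth, calcium, phospholipase and other cell type lists, and paralogs. Genes and the 52 lists were chosen with earlier results of these data known. Stomach and duodenum libraries entered no list, count of calls or ileum difference, and serve for the row check and for levels across libraries.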

Additional observations from a re-analysis of the deposited data

Results flagged for a closer look

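Saa1 differed in opposite directions in neighbouring tissues. Its log2 difference was -1.67 in ileum, with 8.66 RPKM after VSG and 29.8 RPKM after sham surgery, and 1.41 in jejunum, with 2.88 RPKM after VSG and 0.462 RPKM after sham surgery. Saa2 showed the same signs, with a log2 difference of -0.69 in ileum and 1.49 in jejunum, and Hp, haptoglobin, had -0.71 in ileum and 2.27 in jejunum. Other acute phase genes were above 0 in both tissues: Saa3 had 0.33 in ileum and 3.07 in jejunum, Lcn2 had 0.85 in ileum and 2.15 in jejunum, and C3 had 0.96 in ileum and 1.70 in jejunum. In colon, where Saa1 was abundant, it had 855 RPKM after VSG and 930 RPKM after sham surgery. The library labelled VSG stomach held 2520 RPKM of Saa1, against 0.363 RPKM in the library labelled sham stomach. The difference between tissues was not tested, since each pair holds 1 library a group.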

How the results depend on the processing

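The count of genes at 2-fold depended on the pseudocount. With 0.1 in place of 1, 35 genes were higher and 42 lower, and with 5, 8 were higher and 2 lower. A filter at a mean of 5 RPKM left 5 lower genes (14 higher), and leaving out models under 200 bases, an alternative chosen after seeing the data, left 7 lower (16 higher). The other planned settings (no filter, 4 scalings, rows as deposited, leaving out genes of other cell types) gave 15 to 22 higher and 14 to 20 lower. With rows as deposited the values fall on other genes, and 5 of the 18 and 4 of the 15 were shared. Rescaling to 1 total of RPKM changed the counts at 1.3-fold to 156 higher and 634 lower, where 276 were higher and 378 lower as deposited. No called gene changed sign under the pseudocounts and scalings tried, but this was fixed in advance and shows nothing about robustness. A pseudocount cannot change a sign, and the largest shift of the median by scaling was -0.0831, whereas called genes lie at least 1 from 0. Of the 52 list medians, 20 changed sign under some setting, each from a main value within 0.16 of 0. No paired analysis was possible because each group has 1 library. Calls in short gene models rest on 0 to 40 reads a library, and the lack of replicates limits every difference.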

Other observations

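A few further genes, chosen after their values were seen, were higher in VSG ileum without reaching the threshold. Areg, the epithelial growth factor amphiregulin, had 10.5 RPKM in VSG and 4.79 RPKM in sham ileum, a ratio of 2.19 (1.89 to 2.55). Lama3, a laminin chain of the basement membrane, had 16.9 in VSG and 9.23 RPKM in sham ileum, and Krt7, a keratin, had 88 in VSG and 54.9 RPKM in sham ileum. The enzymes that make and remove adenosine were both higher, with Nt5e, which makes it, at 31.9 RPKM in VSG and 18.7 RPKM in sham ileum, and Ada, which deaminates it, at 263 in VSG and 150 RPKM in sham ileum. In jejunum, by contrast, Ada had 513 RPKM after VSG and 979 RPKM after sham surgery, and Nt5e had 26.1 RPKM after VSG and 35.2 RPKM after sham surgery.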
